A study of Homo sapiens with 6 samples.

Results

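The 10 genes described here control how cells store and release neutral lipid: HILPDA, PLIN2, PLIN3, ANGPTL4, PNPLA2, G0S2, LIPE, DGAT1, DGAT2 and LPIN1. They were taken by name from probe sets of the expression array that carry 1 gene symbol, and where several probe sets carried a symbol the brightest by mean stood for the gene. All 10 were measured, among 18417 genes so named. RNA came from H460 cells, an established human line of large cell lung carcinoma, and was hybridised to 6 Affymetrix Human Gene 1.0 ST arrays. The cells were incubated for 16 h in low-serum medium with DMSO or with BAY 87-2243. This small molecule lowers HIF-1 activity, and the study reports that it inhibits complex I of the mitochondrial respiratory chain. The conditions were normoxia with DMSO (the normoxic control), normoxia with 100 nM BAY 87-2243, hypoxia (1% oxygen) with DMSO (the hypoxic control), hypoxia with 100 nM, and hypoxia at each of the lower doses. On the lower-dose arrays the labels contradict each other: the array titled 10 nM has 1 nM in its source name, and the array titled 1 nM has 10 nM, so both are named here by title and no order of dose was drawn from them.

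Each condition had 1 array and the study used 1 cell line at 1 time, so no difference below has a replicate check or a test. A value is the deposited linear intensity, and a log2 difference is that of 2 arrays for the same probe set. Differences were taken between arrays and not between genes, since probe sets differ in brightness. Sums over marker genes and the array median served as rough guides to brightness. As a descriptive yardstick, on the 2 most similar arrays (normoxia and hypoxia, both with 100 nM) 95% of the 11301 brighter genes lay within 1.29-fold of each other, a spread that holds any effect of oxygen as well. Counts below use a 2-fold threshold and are set beside the share of all genes past it. In RNA of whole cultures, fewer cells expressing a gene and less RNA per cell cannot be told apart.

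The labelled cell type was checked against marker genes. The 4 epithelial keratins KRT7, KRT8, KRT18 and KRT19 were above the array median on all arrays, with a summed intensity of 27627 to 31661. Of 7 blood and endothelial cell markers, 6 were below the median of every array, and CD14 was above it on all (238 to 321). Of 6 adipocyte markers, ADIPOQ, LEP, FABP4 and CIDEC were below the median of every array and none was listed at 0. Only CFD (adipsin), a secreted protease of the complement system, was above it throughout. The summed intensity of the adipocyte markers was 846 and 861 in normoxia with DMSO and 100 nM, and 1332, 1232, 1028 and 886 in hypoxia with DMSO, on the arrays titled 10 nM and 1 nM, and with 100 nM. Most of that movement was CFD (502 in normoxic and 919 in hypoxic DMSO, 536 in hypoxia with 100 nM), since the sum without it was 344, 414 and 350 on those arrays. Its part in the values of the 10 genes was not tested.

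Cells keep triacylglycerol in lipid droplets, whose surface carries coat proteins of the perilipin family. The stored fat is made from glycerol phosphate and fatty acids and is broken down by a chain of lipases, of which adipose triglyceride lipase (PNPLA2) takes the initial step and hormone-sensitive lipase (LIPE) the next. Small proteins such as HILPDA and G0S2 bind and inhibit PNPLA2, whereas ANGPTL4 is secreted and inhibits lipoprotein lipase, which releases fatty acids from lipoproteins outside the cell. HIF transcription factors are known to bind DNA at a short core motif in many genes that respond to low oxygen, and accumulation of lipid droplets is a known feature of hypoxic tumour cells.

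The 10 genes separated into 3 whose intensity spanned more than 10-fold over the 6 arrays and 7 that spanned less than 2-fold. HILPDA, PLIN2 and ANGPTL4 were 6.19-fold to 7.43-fold higher in hypoxia than in normoxia with DMSO, and 3.24-fold to 14.7-fold lower in hypoxia with 100 nM BAY 87-2243 than in hypoxia with DMSO. The highest array over the lowest was 28.3 for HILPDA, 11.5 for PLIN2 and 13.2 for ANGPTL4. The same ratio was 1.92 for LPIN1, and for the other 6 genes it lay between 1.37 and 1.74.

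**Figure D1:**
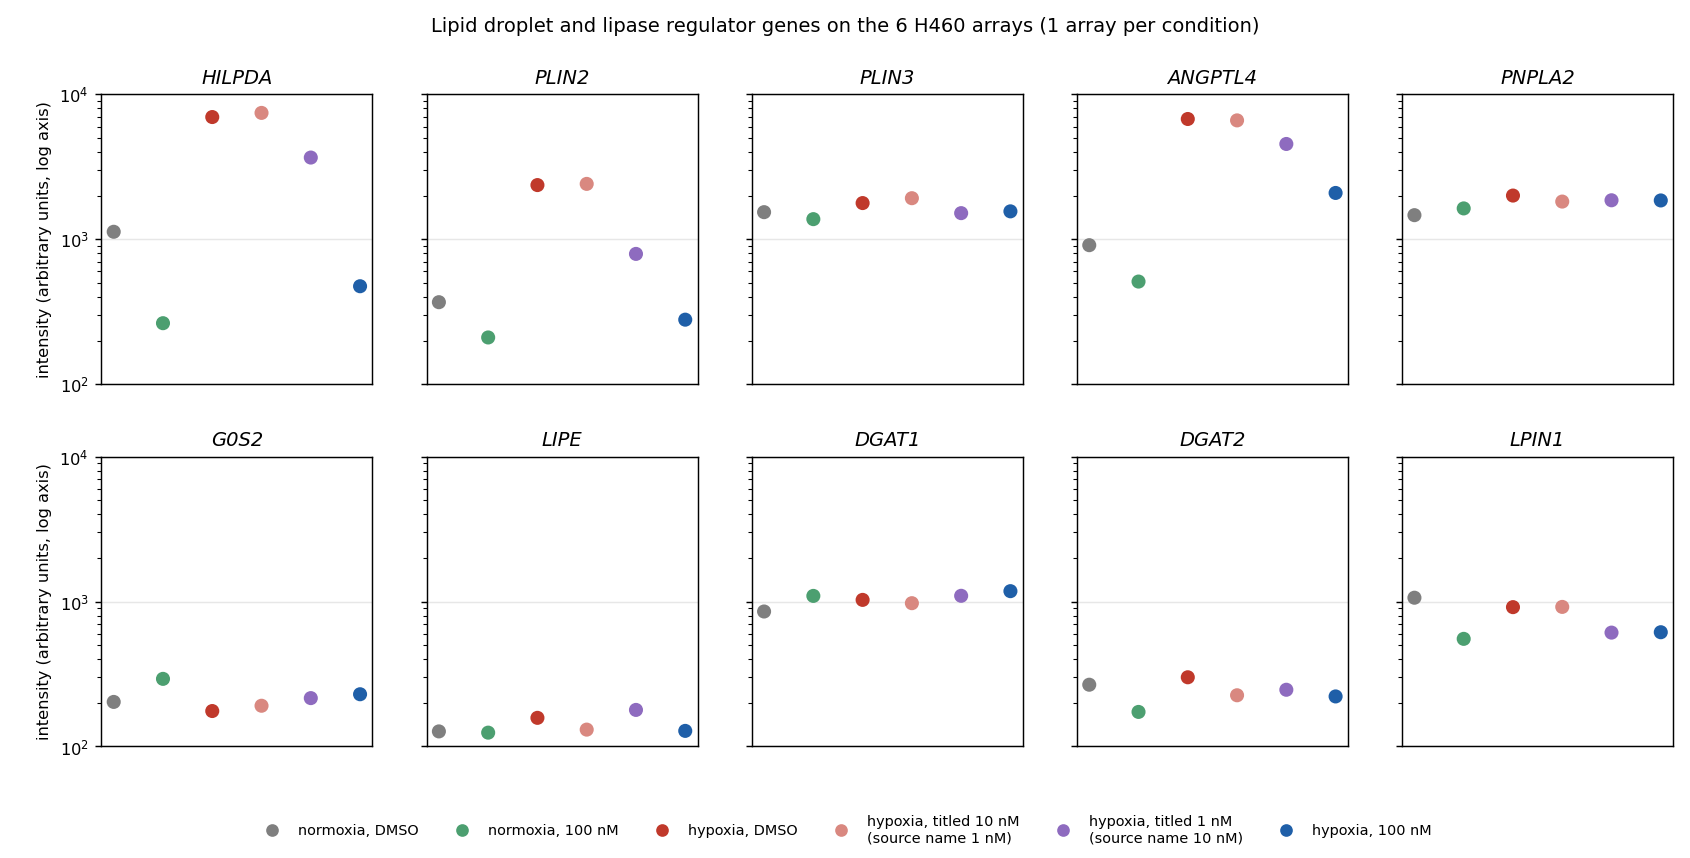
Intensity of the 10 genes on each of the 6 arrays (vertical axis, linear intensity on a log scale; 1 point per array, 1 array per condition, 1 panel per gene). HILPDA, PLIN2 and ANGPTL4 are high on the hypoxic control and on the array titled 10 nM and lower with 100 nM, while the points of the other 7 genes stay within 2-fold.

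HILPDA, the hypoxia-inducible inhibitor of PNPLA2, had an intensity of 1127 in normoxia with DMSO, 264 in normoxia with 100 nM, 6976 in hypoxia with DMSO, 7451 on the array titled 10 nM, 3665 on the array titled 1 nM and 474 in hypoxia with 100 nM. The low end was held by both arrays with 100 nM, which were below the normoxic DMSO array whatever the oxygen. Hypoxia with DMSO was 2.63 higher on the log2 scale than normoxia with DMSO, the difference ranked 14 from the highest of the 18417 genes. Hypoxia with 100 nM differed from hypoxia with DMSO by -3.88 on the log2 scale, the lowest value of all 18417 genes. In normoxia the same dose differed from DMSO by -2.10, rank 11 from the lowest. Hypoxic cells with 100 nM were also below untreated normoxic cells, by -1.25 on the log2 scale.

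PLIN2, the perilipin that coats droplets in most cell types outside fat tissue, had an intensity of 368 in normoxia with DMSO, 210 in normoxia with 100 nM, 2366.5 in hypoxia with DMSO, 2412 on the array titled 10 nM, 793 on the array titled 1 nM and 279 in hypoxia with 100 nM. The hypoxic control and the array titled 10 nM were close to each other and far above the rest, and the array titled 1 nM lay between them and the others. The hypoxic difference with DMSO was 2.68 on the log2 scale (rank 12 from the highest). With 100 nM in hypoxia it was -3.09 against DMSO, rank 4 from the lowest, and in normoxia the dose differed by -0.81, within 2-fold. PLIN3, a perilipin found both in the cytosol and on small droplets, had intensities of 1539, 1377, 1778, 1921, 1515 and 1559 on the arrays in the same order. Its hypoxic difference was 0.21 and its difference with 100 nM in hypoxia -0.19, so the other droplet coat gene of the 10 did not share the size of the PLIN2 differences.

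ANGPTL4, the secreted inhibitor of lipoprotein lipase, had an intensity of 911 in normoxia with DMSO, 511 in normoxia with 100 nM, 6763 in hypoxia with DMSO, 6615 on the array titled 10 nM, 4548 on the array titled 1 nM and 2088 in hypoxia with 100 nM. All 4 hypoxic arrays were above both normoxic arrays, which was so for ANGPTL4 and not for HILPDA or PLIN2. Its hypoxic difference with DMSO, 2.89 on the log2 scale, ranked 6 from the highest of all genes. With 100 nM it was lower in hypoxia by -1.70 (rank 29 from the lowest) and in normoxia by -0.83. With 100 nM on both sides, hypoxia remained 2.03 higher on the log2 scale than normoxia, which is 4.09-fold and the highest value of the 18417 genes in that comparison.

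To show the letters near the start of genes that moved together and others that did not, promoters came from RefSeq (GRCh38.p14). They are given for 7 of the 10 genes and not for HILPDA, DGAT1 and DGAT2. The set of promoters used had no entry for HILPDA or DGAT2. The selection also passed over a whole chromosome, so a gene missing here need not be missing from RefSeq. The window is the 250 bases before the start of transcription, printed 5′ to 3′ on the gene's strand, with capitals for ACGTG or GCGTG, the core motif of HIF binding, read on both strands. PLIN2 lies on the minus strand (chr9:19127493-19127742) and ANGPTL4 on the plus strand (chr19:8363905-8364154); PLIN3 (minus strand, chr19:4867668-4867917) and G0S2 (plus strand, chr1:209675162-209675411) are shown beside them as genes that hold the motif and whose intensities stayed within 2-fold.
PLIN2: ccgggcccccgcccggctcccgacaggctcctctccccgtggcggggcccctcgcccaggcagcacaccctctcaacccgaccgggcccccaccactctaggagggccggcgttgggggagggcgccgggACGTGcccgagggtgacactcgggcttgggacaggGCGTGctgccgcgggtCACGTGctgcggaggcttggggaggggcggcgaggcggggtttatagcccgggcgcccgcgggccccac
ANGPTL4: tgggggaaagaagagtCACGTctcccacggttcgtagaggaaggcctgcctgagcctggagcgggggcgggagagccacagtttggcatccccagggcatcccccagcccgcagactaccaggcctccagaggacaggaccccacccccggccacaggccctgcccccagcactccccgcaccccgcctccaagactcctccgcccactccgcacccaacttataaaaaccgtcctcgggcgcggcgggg
PLIN3: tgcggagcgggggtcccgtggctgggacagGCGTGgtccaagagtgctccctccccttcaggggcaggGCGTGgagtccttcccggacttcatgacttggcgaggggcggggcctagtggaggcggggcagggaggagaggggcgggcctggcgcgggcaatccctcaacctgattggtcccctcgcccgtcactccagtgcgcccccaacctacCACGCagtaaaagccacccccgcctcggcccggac
G0S2: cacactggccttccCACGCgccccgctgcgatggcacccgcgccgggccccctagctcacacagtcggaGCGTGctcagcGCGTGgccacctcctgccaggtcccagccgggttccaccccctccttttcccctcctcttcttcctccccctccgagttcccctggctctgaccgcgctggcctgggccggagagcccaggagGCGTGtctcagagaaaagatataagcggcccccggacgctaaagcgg

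The PLIN2 window held 4 matches, which begin 120, 85, 69 and 68 bases before the start. The last pair overlaps as the palindrome CACGTG, read once on each strand. ANGPTL4 held 1 match, 234 bases before the start. PLIN3 held 3 and G0S2 held 4, none of them in CACGTG. Of the other genes within 2-fold, PNPLA2 (1 promoter) and LIPE (2 promoters) held 0, and 1 of 3 promoters of LPIN1 held 1. Over the 7 genes, 5 of 10 promoters held the motif. Of all 35116 promoters of the same length 43.2% did, a share for which no chromosome was passed over. CACGTG was in 6.34% of them. The motif was thus in the windows of PLIN2 and ANGPTL4 and in those of some, not all, of the genes that stayed within 2-fold, and a match is no evidence of binding.

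Among the remaining regulators of lipolysis, no difference reached 2-fold. G0S2, another inhibitor of PNPLA2, had intensities of 203, 293, 176, 191, 216 and 229 in normoxia with DMSO and 100 nM, in hypoxia with DMSO, on the arrays titled 10 nM and 1 nM, and in hypoxia with 100 nM. Its log2 difference was -0.21 between hypoxia and normoxia with DMSO and 0.38 for 100 nM in hypoxia, in each case of opposite sign to that of HILPDA. In normoxia 100 nM gave 0.53. PNPLA2 itself was lowest in normoxia with DMSO at 1467, was 1633 in normoxia with 100 nM, and lay between 1821 and 2003 on the 4 hypoxic arrays. The hypoxic difference with DMSO was 0.45. LIPE lay between 124.5 and 179, above the array median on 3 of 6 arrays only, so its differences (0.31 for hypoxia, -0.30 for 100 nM in hypoxia) are those of a probe set near the middle of the arrays.

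The genes of triacylglycerol synthesis were also within 2-fold throughout. DGAT1, an acyltransferase of the final step, lay between 854 in normoxia with DMSO and 1180 in hypoxia with 100 nM, with 974 to 1096 on the other 4 arrays. DGAT2, which catalyses the same step, had 267 and 173 in normoxia with DMSO and 100 nM, and 300.2, 226, 246 and 221 on the hypoxic arrays in the order above. It was lower with 100 nM both in normoxia (-0.62) and in hypoxia (-0.44), whereas DGAT1 was higher (0.36 and 0.20). LPIN1, the phosphatidate phosphatase that supplies diacylglycerol, had 1063 in normoxia with DMSO and 553 in normoxia with 100 nM, a log2 difference of -0.94 that ranked 229 from the lowest of all genes. In hypoxia it had 915 with DMSO, 918.5 and 610.5 on the arrays titled 10 nM and 1 nM, and 614 with 100 nM. The array titled 1 nM and both arrays with 100 nM were its 3 lowest.

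Counted over the 10 genes, the hypoxic control was at least 2-fold above the normoxic control for 3 and below it for 0, where 1.67% of all genes were higher and 3.68% lower. The median log2 difference was 0.29 over the 10 genes and 0.08 over all genes. In hypoxia, 100 nM left 3 of 10 at least 2-fold lower and 0 higher, beside 1.01% and 0.771% of all genes, with medians of -0.37 and -0.04. These comparisons share the hypoxic DMSO array, so the same 3 genes standing in both is not independent. The 10 genes were also chosen with earlier results of these data known, so the shares of all genes are no test of the counts. In normoxia, 100 nM left 1 of 10 at least 2-fold lower, HILPDA, beside 0.956% of all genes. Between hypoxia and normoxia with 100 nM on both sides, 1 of 10 was at least 2-fold higher, ANGPTL4, beside 0.147% of all genes.

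**Figure D2:**
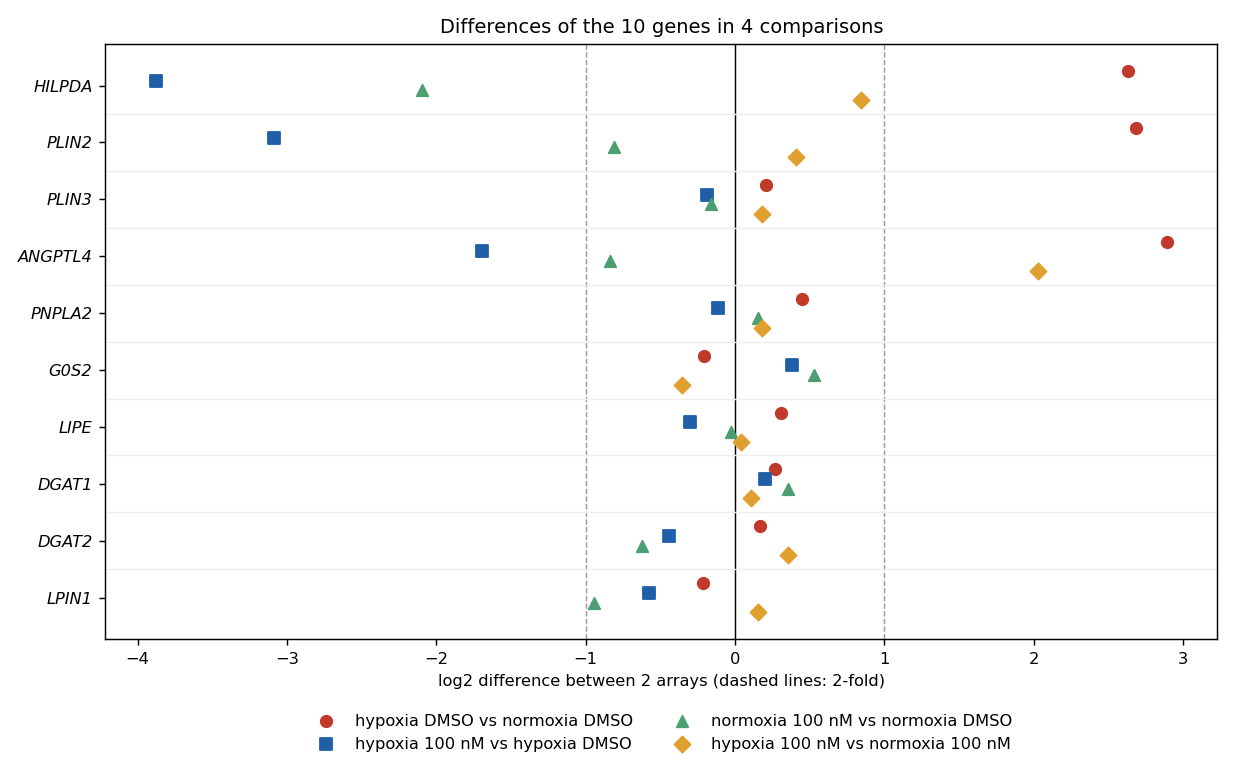
Log2 differences of the 10 genes (rows: genes, horizontal axis: log2 difference, a marker for each comparison). Hypoxia is set against normoxia with DMSO and with 100 nM, and 100 nM against DMSO in hypoxia and in normoxia. Each marker is the difference between 2 arrays, several comparisons share an array, and dashed lines mark 2-fold. The lower-dose arrays are not shown. HILPDA, PLIN2 and ANGPTL4 hold the differences past 2-fold, from 2.89 for ANGPTL4 in hypoxia to -3.88 for HILPDA with 100 nM in hypoxia.

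The arrays of the lower doses differed from each other. On the array titled 10 nM, HILPDA, PLIN2 and ANGPTL4 differed from hypoxia with DMSO by 0.10, 0.03 and -0.03 on the log2 scale, and 0 of 10 genes were at least 2-fold lower, beside 0.206% of all genes. On the array titled 1 nM they differed by -0.93, -1.58 and -0.57, and 1 of 10, PLIN2, was at least 2-fold lower, beside 0.358% of all genes. PLIN2, at 2.99-fold lower, ranked 6 from the lowest of all genes there, and HILPDA ranked 86. The array titled 1 nM was thus between hypoxia with DMSO and hypoxia with 100 nM for each of the 3 genes, and the array titled 10 nM was within 1.29-fold of hypoxia with DMSO.

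The hypoxic difference itself was set side by side with and without the compound, from 4 different arrays. For PLIN2 it was 2.68 with DMSO and 0.41 with 100 nM, a gap of -2.28 on the log2 scale. For HILPDA it was 2.63 and 0.85, a gap of -1.78, and the 0.85 stood at rank 52 from the highest among all genes. For ANGPTL4 it was 2.89 and 2.03, a gap of -0.86. ANGPTL4 thus kept the most of its hypoxic difference on the log2 scale among the 3, HILPDA less and PLIN2 the least, an order with no test behind it. In the same conditions the hypoxic differences with 100 nM of the other 7 genes lay between -0.35 for G0S2 and 0.36 for DGAT2.

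**Figure D3:**
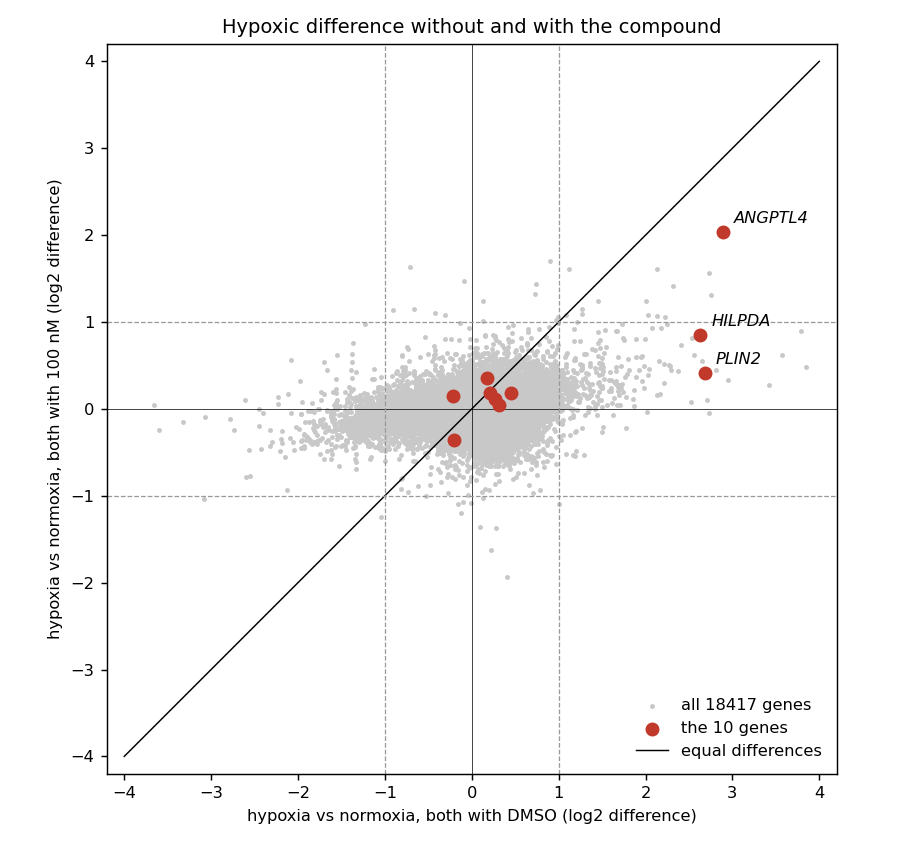
Log2 difference between hypoxia and normoxia with DMSO (horizontal axis) against the same difference with 100 nM BAY 87-2243 (vertical axis), 1 point per gene. The 10 genes are in red, with HILPDA, PLIN2 and ANGPTL4 labelled, and all genes are behind in grey. The 2 axes share no array. The points of HILPDA, PLIN2 and ANGPTL4 lie far to the right and below the line of equality, ANGPTL4 at 2.03 on the vertical axis, the highest of all genes.

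Genes with the most similar patterns were ranked by the root mean square difference of their log2 ratios to the normoxic DMSO array over the other 5 arrays, among 11974 genes bright enough to compare. Nearest to HILPDA were NRN1 (0.66), PLIN2 (0.74), INSIG2 (0.81), EFNA1 (0.83) and PFKFB4 (0.94). Nearest to PLIN2 were EFNA1 (0.26), BHLHE41 (0.29), INSIG2 (0.37), UPK1A (0.43) and TCP11L2 (0.45), and nearest to ANGPTL4 were ENO2 (0.38), NDRG1 (0.39), STC1 (0.57), PDGFA (0.65) and EFNA3 (0.66). PLIN2 was thus the second nearest gene to HILPDA, while many other genes were nearer to PLIN2 than HILPDA, which ranked 22. ANGPTL4 ranked 24 for HILPDA and 62 for PLIN2. No gene was as near to HILPDA as the nearest genes of PLIN2 and ANGPTL4 were to them.

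Between the DMSO controls, and with 100 nM against DMSO in hypoxia, the other genes of lipid storage moved less than HILPDA, PLIN2 and ANGPTL4. Most genes of the array stayed within 2-fold as well. With 100 nM against DMSO in normoxia, or with 100 nM on both sides, some of the other genes moved more than PLIN2. Of 17 measured genes of droplet coats and droplet formation, 0 differed by 2-fold between hypoxia and normoxia with DMSO or with 100 nM in hypoxia, and their medians were -0.05 and -0.04 on the log2 scale. In those 2 comparisons the medians of all genes were 0.08 and -0.04. Of all genes, 1.67% were at least 2-fold higher and 3.68% lower on the hypoxic control, and 0.771% and 1.01% with 100 nM in hypoxia. Lists this short would hold few genes past 2-fold at those shares. Of the 17, 12 reached the highest array median on their brightest array. PCYT1A, an enzyme of phosphatidylcholine synthesis, differed by -0.90 between the controls and by 0.50 with 100 nM in hypoxia.

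Of 16 other genes of triacylglycerol and sterol ester synthesis, 10 reached the highest array median on their brightest array. On the hypoxic control 1 was at least 2-fold higher and 3 lower than on the normoxic control, beside 1.67% and 3.68% of all genes. The median was -0.05. GPAM, a mitochondrial acyltransferase of the initial step of glycerolipid synthesis, had 486 in normoxia with DMSO, 322 in normoxia with 100 nM, 124 in hypoxia with DMSO, 176 and 203 on the arrays titled 10 nM and 1 nM and 309 in hypoxia with 100 nM. It was thus lowest where HILPDA, PLIN2 and ANGPTL4 were high, with -1.97 for hypoxia and 1.32 for 100 nM in hypoxia. GPD1L, named for its likeness to glycerol-3-phosphate dehydrogenase, had the same signs (-1.06 and 1.03). These 2 were the genes of the list at least 2-fold higher with 100 nM in hypoxia, and 0 were lower. Of all genes 0.771% were higher and 1.01% lower there. The median of the list was 0.01. SOAT1, which esterifies cholesterol, differed by -1.12 between the controls and by 0.53 with 100 nM. LPIN2, a relative of LPIN1, went the other way, with 366 on the normoxic and 784 on the hypoxic control (1.10) and 422 in hypoxia with 100 nM (-0.90). In normoxia 100 nM left 1 gene of this list at least 2-fold lower, AGPAT5 (-1.10), beside 0.956% of all genes. AGPAT5 was singled out after its value was seen.

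Of 12 other intracellular lipases and their regulators, 1 was at least 2-fold lower on the hypoxic control, beside 3.68% of all genes. With 100 nM in hypoxia 0 were past 2-fold, beside 0.771% of all genes higher and 1.01% lower. The medians were -0.12 and 0.09. The lower gene was PDE3B, a phosphodiesterase of cyclic nucleotides, at 808 in normoxia and 398 in hypoxia (-1.02). Around ANGPTL4, 0 of 9 measured genes of the lipoprotein lipase system and 0 of 4 other angiopoietin-like genes reached 2-fold in either comparison. Their medians were 0.24 and 0.20 for hypoxia and -0.08 and -0.21 for 100 nM in hypoxia. Of the 9 and the 4, 7 and 2 reached the highest array median on their brightest array. Lists this short would hold few genes past 2-fold at the shares of all genes. LPL, the lipase that ANGPTL4 inhibits, was above the array median on 2 of 6 arrays, with 98.8 on the normoxic control, 155 on the hypoxic control and 122 in hypoxia with 100 nM. ANGPTL6 and ANGPTL8 differed by 0.24 and 0.01 in hypoxia with DMSO, so neither had a hypoxic difference near that of ANGPTL4.

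**Figure D4:**
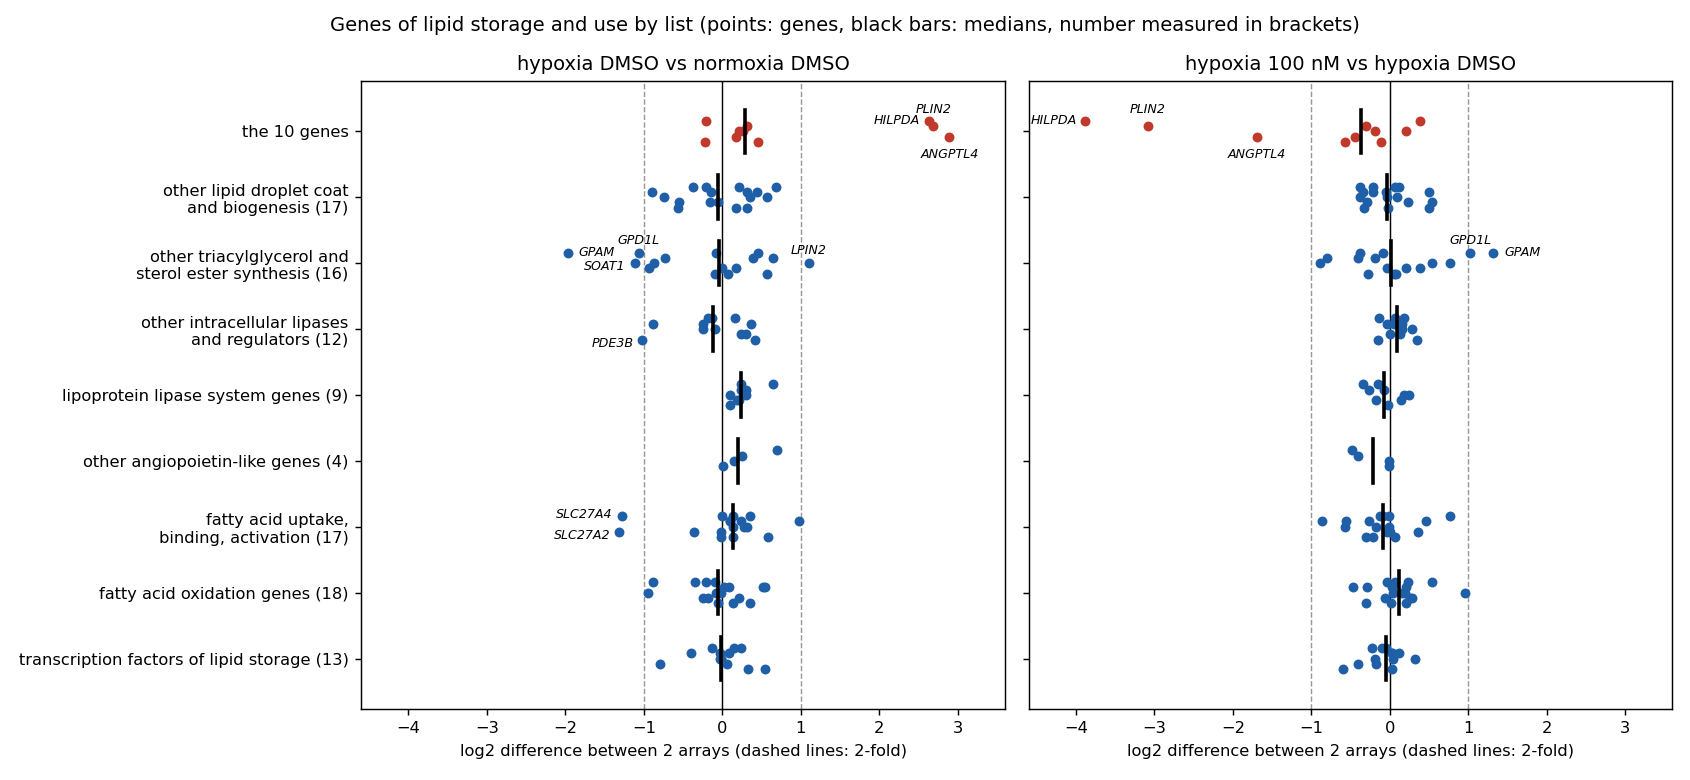
Log2 differences of the 10 genes and of 8 lists of other genes of lipid storage and use. The left panel is hypoxia against normoxia with DMSO, the right panel 100 nM against DMSO in hypoxia. Points are genes, black bars medians and dashed lines 2-fold, and every gene past 2-fold is named. The list medians lie between -0.21 and 0.24, and HILPDA, PLIN2 and ANGPTL4 stand apart from every list in both panels.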

How the data were processed

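The deposited data were linear intensity values of 33297 probe sets on 6 arrays, in 1 table. The methods describe MAS 5.0 and Expressionist, but RMA, with no version, stands in the submitters' processing notes, so the background correction and summary behind the values are unsettled. For the probe sets, genome build and annotation were not given in the sources used here. The methods and the labels also differ on the amount of RNA labelled.

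Through the platform annotation 19460 probe sets had 1 symbol, 1754 had several and 12083 were unnamed here. The brightest probe set by mean stood for a gene. Log2 was taken with no pseudocount and no filter. Array medians lay between 128 and 140, so scaling was varied. No test was run since each condition had 1 array, the number of arrays limits the precision, and 2-fold was the threshold.

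The members, the lists and the rule for named genes were chosen with earlier results of these data known. The text names all 10 members, the 5 nearest patterns of 3 of them, and from each of 8 lists up to 2 genes with the largest difference in either main comparison plus those past 2-fold, where the brighter array reached its median. Alternatives were quantile normalization, median centring, 32 added before log2, the mean of all probe sets, thresholds of 1.5-fold and 3-fold, another array on 1 side, and brighter genes only. The log2 differences were tested on simulated data, and the motif counts were not. Python 3.11.15, numpy 2.4.6, pandas 2.3.3 and matplotlib 3.10.9 were used.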

Additional observations from a re-analysis of the deposited data

Results flagged for a closer look

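A pair of genes had effects of opposite sign under the same contrast, each from 1 array per condition, and the difference between the effects was not tested. The log2 difference of PNPLA2 with 100 nM BAY 87-2243 was -0.11 in hypoxia and 0.15 in normoxia, which differ by -0.27. The hypoxic log2 difference of LPIN1 was 0.15 with 100 nM and -0.22 with DMSO, which differ by 0.37. All 4 effects were within 1.29-fold, the spread given above for the most similar arrays. The hypoxic difference of HILPDA, PLIN2 and ANGPTL4 kept its sign with 100 nM.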

How the results depend on the processing

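Over the 10 genes and 6 comparisons, none of the 180 differences under 3 alternatives (quantile normalization, median centring, 32 added before log2) crossed the 2-fold threshold. The mean of all probe sets could change no value, since 9 genes had 1 probe set and the 2 of DGAT1 held the same values. Signs changed only on the array titled 10 nM against hypoxia with DMSO, for PLIN2 and LPIN1 under quantile normalization and for ANGPTL4 and DGAT1 under centring, where centring moved the median of all genes from 0.00 to 0.10. At 1.5-fold, 100 nM in normoxia left 5 genes lower, hypoxia against normoxia with 100 nM had 2 higher, and the array titled 1 nM had 2 lower, beside 4.55%, 0.972% and 2.55% of all genes. At 3-fold the array titled 1 nM had 0 lower, beside 0.0271% of all genes. The counts of 3 genes were 3 at 1.5-fold and 3-fold, beside 8.9% and 0.467% of all genes for hypoxia and 5.7% and 0.201% for 100 nM in hypoxia. They were also 3 when the array titled 10 nM stood for the hypoxic control. For HILPDA, PLIN2 and ANGPTL4 that array was within 1.07-fold of the control, so this exchange could not lower the counts. The filter on brighter genes removed none of these 3 genes and so could not lower the counts. No paired analysis was possible because each condition has 1 array. The dose of the lower-dose arrays is unsettled. No detection calls were used, also for named genes at or below the array median on several arrays, such as LIPE, LPL, PPARGC1A and UPK1A. GPAM was below the median on the hypoxic control, an array that enters both of its differences given above.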

Other observations

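The genes that bring fatty acids into the cell did not move as 1 group. Of 17 measured genes of fatty acid uptake, binding and activation, 8 reached the highest array median on their brightest array. Between the DMSO arrays 0 were at least 2-fold higher and 2 lower in hypoxia, beside 1.67% and 3.68% of all genes. Both lower genes code for fatty acid transport proteins. SLC27A2 had 972 in normoxia and 390 in hypoxia with DMSO (-1.32 on the log2 scale), and SLC27A4 had 1188 and 489 (-1.28). With 100 nM BAY 87-2243 in hypoxia they were at 499.6 and 833, and in normoxia with 100 nM at 517 and 849. VLDLR, a receptor for lipoproteins rich in triacylglycerol, went the other way, with 597 in normoxia and 1174 in hypoxia with DMSO (0.98), 643 in hypoxia with 100 nM and 316 in normoxia with 100 nM. With 100 nM on both sides it was 1.03 higher in hypoxia, the only gene of the 17 past 2-fold there, beside 0.147% of all genes.

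Of 18 genes of fatty acid oxidation and 13 transcription factors of lipid storage, 0 were past 2-fold in hypoxia with DMSO or with 100 nM in hypoxia. Their medians were -0.06 and -0.01 on the log2 scale for hypoxia and 0.11 and -0.04 for 100 nM. Of all genes, 1.67% were at least 2-fold higher and 3.68% lower in hypoxia, and 0.771% and 1.01% with 100 nM. Lists this short would hold few genes past 2-fold at those shares. ETFDH, which passes electrons from fatty acid oxidation to the respiratory chain, differed by -0.88 and 0.53. PPARGC1A, a coactivator of mitochondrial and oxidative genes, had 215 on the normoxic and 124 on the hypoxic control (-0.80) and was at 109 in hypoxia with 100 nM (-0.18). RXRA, a nuclear receptor that pairs with the PPAR receptors, differed by 0.55 and -0.59.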
